A study of Sus scrofa with 21 samples.

Results

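The genes described here were low in the scar of a pig heart infarct at 4 weeks and higher again in the scar at 6 weeks. They were selected on measured values, as 90 of the 12180 probe sets tested. A probe set, the unit of the array, is a group of probes for 1 transcript. A probe set was taken if its mean log2 value in the infarct core (IC) at 4 weeks lay at least 1.5 below that of control myocardium (CM), and if its mean in IC at 6 weeks lay at least 1 above that of IC at 4 weeks. Both differences are differences of means of 3 arrays, and they describe the members without being tested. Of 689 probe sets that met the first threshold, 90 (13.1%) also met the second and 599 did not.

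RNA of 21 pieces of pig heart was measured on Affymetrix porcine arrays, each piece on its own array. Female Landrace x Large White pigs of 30-40 kg had an infarct made by a double tie around a marginal branch of the circumflex artery, and the ages of the animals are not given in the sources used here. Hearts were taken 1 week after the infarct from pigs 7, 8 and 9, after 4 weeks from pigs 18, 20 and 22, and after 6 weeks from pigs 2, 3 and 5. Each heart gave 1 IC sample from the middle of the scar and 1 sample of remote myocardium (RM) from the septum. Pigs 30, 31 and 33 gave the CM samples. The labels call these 3 animals sham-operated, with an opened chest and no ligation, and the paper calls them healthy. A piece of tissue holds many cell types, so fewer cells of a type and less RNA per cell cannot be told apart in any value below. The smallest p of an exact permutation test of 3 arrays against 3 is 0.1, and no such test was run.

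Heart muscle cells draw most of their energy from mitochondria, and keep glycogen and creatine phosphate as reserves for a sudden load. The coactivator PGC-1alpha, encoded by PPARGC1A, drives the genes of mitochondrial biogenesis, and AMP-activated protein kinase senses a fall in energy and acts on the same pathways. After an infarct the dead muscle is replaced by granulation tissue and then by a collagen scar, in which muscle cells survive mainly as islands and along the borders.

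The members fell into a main group of 85 and a set of 5 that behaved differently, shown in the plot of the differences that define the members. The platform's annotation named 39 of the 90, and the authors' match to a human gene named 32 more, so that 67 distinct symbols stood for 71 probe sets. The other 19 had no symbol. Both sources named 27 members and differed for 3, of which KLHL41 and KBTBD10 are names of 1 gene, while RNF207 was TRIM44 and COX8H was B3GNT7 in the authors' match.

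**Figure D1:**
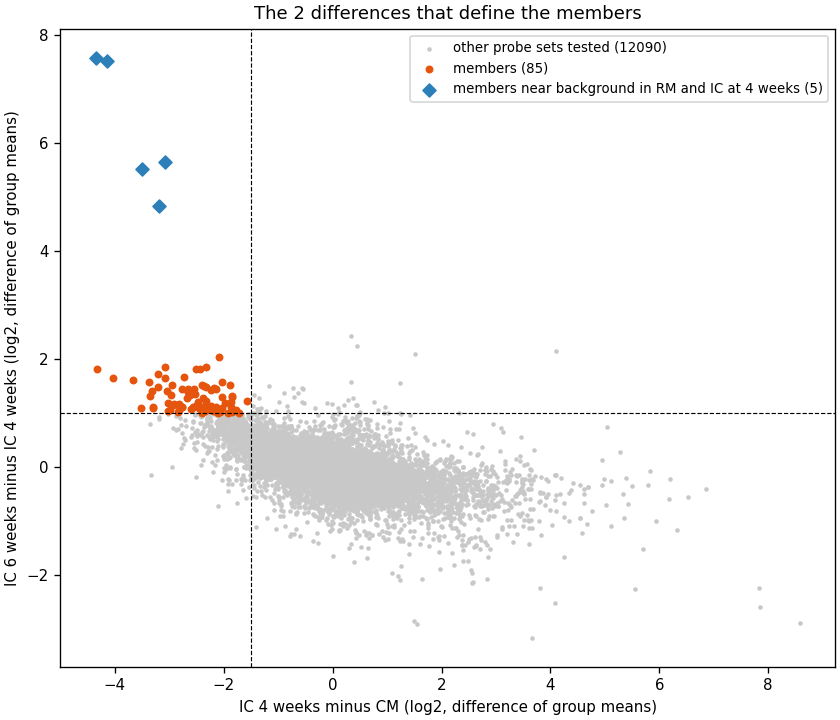
Each point is a probe set tested, placed by its IC 4 weeks minus CM difference (x axis, log2) and its IC 6 weeks minus IC 4 weeks difference (y axis, log2), with the thresholds at -1.5 and 1 dashed. The 85 members in orange lie close to the upper edge of one cloud, while the 5 blue members stand far above it.

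Before the results, 1 disagreement with the labels has to be stated. EIF1AY, a translation factor gene that RefSeq places on chromosome Y (assembly Sscrofa11.1), is no member and was below the filter, since it was high in 7 arrays only. Its log2 value lay between 6.03 and 7.39 in the 6 arrays of pigs 18, 20 and 22 and in CM pig 30, and between 0.35 and 0.82 in the other 14 arrays. The labels give every pig as female. The testis-determining gene SRY, also on chromosome Y, had values from 0.62 to 1.22 in all 21 arrays. An RNA value near background does not tell whether the gene itself was present. All pigs sampled at 4 weeks thus carried the EIF1AY signal and no pig at 1 or 6 weeks did, so whatever that signal marks cannot be told apart from the stage in any comparison of 4 weeks with 6 weeks.

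The 5 members that stood apart followed exactly this division. They were at or near background in RM and IC of all pigs at 4 weeks and in CM pig 30, with values from 0.51 to 2.01, and at 4.75 to 8.86 in the other 14 arrays. They were the only probe sets of the 12180 tested in which those 7 arrays all lay more than 1 below the other 14, and 1 more with this division was found below the filter. In the opposite direction the whole table held 4 probe sets, EIF1AY among them, and none of these passed the filter.

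The authors' tables give 2 names for 1 of these 5 probe sets. By the human symbol it is CLOCK, a gene of the circadian clock, and by the gene name column of the same table it is XIST, the RNA that coats the inactive X chromosome of female cells. Its values were 1.62, 4.93 and 5.08 in CM pigs 30, 31 and 33, then 1.01, 1.14 and 0.84 in RM at 4 weeks and 1.00, 0.62 and 0.77 in IC at 4 weeks. In RM at 6 weeks it was at 4.98, 5.35 and 5.09, and in IC at 6 weeks at 6.12, 6.26 and 6.96. Arrays of the pigs with EIF1AY were low and all others high, without overlap and in both tissues, and no statement on the circadian clock is drawn from it. LPHN2, a latrophilin adhesion receptor by the authors' match, was at 2.01, 5.38 and 6.14 in the CM pigs and at 1.36, 0.88 and 1.71 in IC at 4 weeks, and the other 3 had no symbol.

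**Figure D2:**
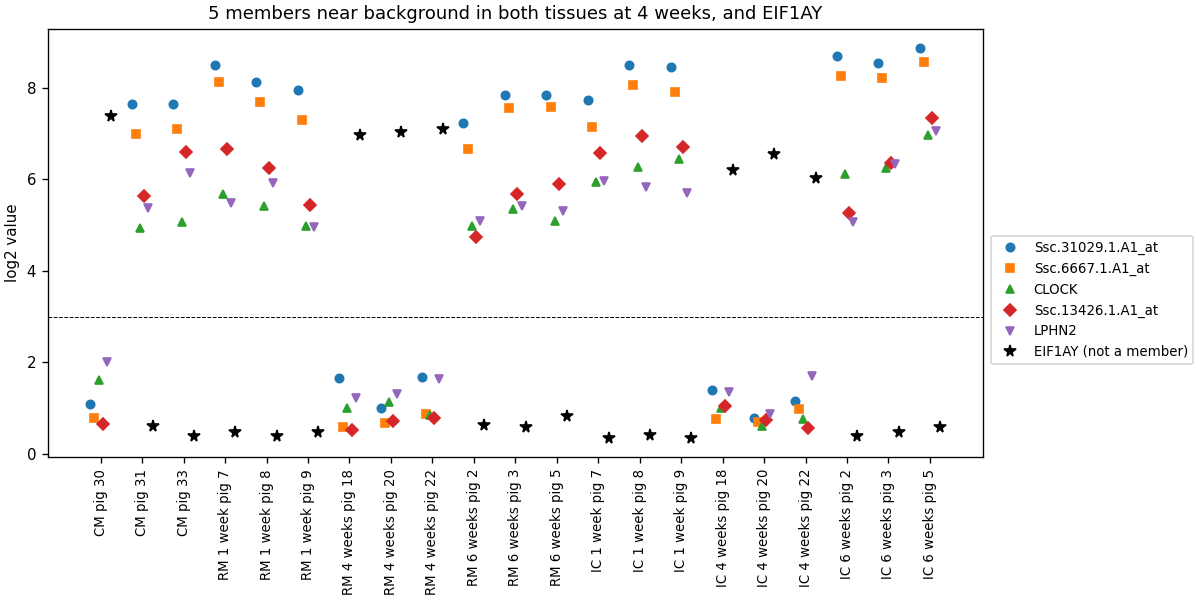
The log2 values (y axis) of 5 members and of EIF1AY are plotted for each of the 21 arrays (x axis), with the filter's limit of 3 dashed. The 5 members lie below 2.1 where EIF1AY lies above 6, in CM pig 30 and the 6 arrays of the 4 weeks pigs, and above 4.7 in the 14 arrays where EIF1AY is below 1.

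In the remaining 85 members the loss at 4 weeks was looked at against each kind of control pig, as a description, since the selection used these arrays. Against CM pig 30 alone, which shares the signal with the 4 weeks pigs, the median difference of IC at 4 weeks was -2.42, and 84 of the 85 were at least 1.5 lower. Against CM pigs 31 and 33 it was -2.56, and again 84 were at least 1.5 lower. For the difference between 4 and 6 weeks no such comparison can be made, since no pig at 6 weeks carried the signal.

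Levels of the 85 members were compared array by array, as differences from the mean of CM. Their median was -2.16, -2.38 and -2.90 in IC of pigs 18, 20 and 22 at 4 weeks and -0.88, -1.30 and -1.63 in IC of pigs 2, 3 and 5 at 6 weeks. In IC at 1 week, which the selection did not use, it was -2.05, -2.24 and -1.92. In RM it stayed between -0.41 and 0.10. The members were thus already low in the infarct at 1 week, and 20 of the 85 had a lower mean there than at 4 weeks. Means of IC at 4 weeks lay below 3 for 6 of the 85, where values are near the background of the array and the size of a difference is not exact.

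Cardiomyocyte markers moved in the same order. The 12 markers measured, such as the myosin heavy chain MYH7 and cardiac troponin I (TNNI3), had a median difference from CM of -0.68, -0.83 and -1.40 in IC of pigs 18, 20 and 22, and of -0.07, -0.36 and -0.51 in IC of pigs 2, 3 and 5. In IC at 1 week it was -0.50, -1.01 and -0.73. All 12 had a higher mean in IC at 6 weeks than at 4 weeks, by 0.18 to 0.89, and none was near background. The log2 of their summed level ran from 15.62 to 15.73 in CM, from 14.52 to 15.14 in IC at 4 weeks and from 15.20 to 15.54 in IC at 6 weeks. At 4 weeks pig 22 was the lowest and pig 18 the highest for members and markers alike, and at 6 weeks pig 5 was the lowest and pig 2 the highest. The part of muscle cell content in the members' values was not tested.

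Markers of other cells were set beside them. The 12 markers of fibroblasts and scar, among them FN1 and POSTN, had a log2 summed level of 14.17 to 14.37 in IC at 4 weeks and 13.93 to 14.25 at 6 weeks, against 11.10 to 12.04 in CM, and 2 of the 12 had a higher mean at 6 weeks. For the 7 macrophage markers it was 9.46 to 10.63 at 4 weeks, 8.85 to 9.69 at 6 weeks and 7.31 to 7.75 in CM, and none was higher at 6 weeks. Higher at 6 weeks were also 2 of 7 markers of smooth muscle and pericytes, 4 of 9 of endothelium, 3 of 7 of fat cells and 0 of 3 of nerve, while lymphocytes, mesothelium and red cells had 1 marker each. In IC at 4 weeks, pig 22 had the highest log2 summed level for macrophages (10.63, against 9.57 and 9.46 in pigs 18 and 20). So it did for fat cells (11.23, against 9.83 and 9.68) and endothelium (9.94, against 8.81 and 8.88). For scar, smooth muscle and nerve it was not the highest. The 3′ minus 5′ difference of the array's actin control probe sets, which grows as RNA is shorter or less fully copied, was 2.83 to 3.33 in IC at 4 weeks, 4.54 to 5.26 in IC at 6 weeks and 3.59 to 3.76 in CM. That of the GAPDH control was 0.64 to 0.93, 0.98 to 1.29 and 0.03 to 0.21. The part of these differences in the members' values was not tested.

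**Figure D3:**
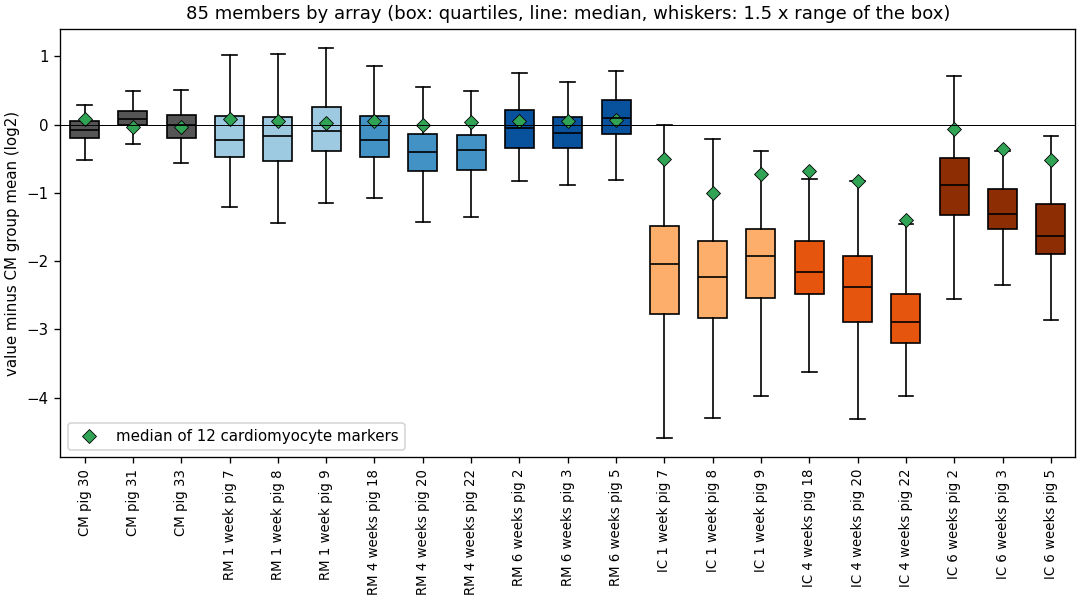
Boxes show the quartiles, and lines the medians, of the 85 members as value minus CM mean (y axis, log2) in each of the 21 arrays (x axis), and green diamonds the median of 12 cardiomyocyte markers. Medians of the members lie between -2.90 and -1.92 in IC at 1 and 4 weeks, between -1.63 and -0.88 in IC at 6 weeks, and near 0 in RM, and the diamonds follow the same order at a smaller distance from CM.

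Taken apart, the 3 arrays of IC at 6 weeks did not contribute equally. In pig 2, 89 of the 90 members lay at least 1 above the mean of IC at 4 weeks, in pig 3 this held for 74 and in pig 5 for 36. Among all lost probe sets, members included, it held for 304 (44.1%), 128 (18.6%) and 44 (6.39%) in pigs 2, 3 and 5. The selection used these arrays, so higher shares among the members follow from it. The median difference over the 85 was 1.53 in pig 2, 1.23 in pig 3 and 0.91 in pig 5. Over the lost probe sets that were not members it was 0.89, 0.59 and 0.23, so the order of the pigs was not particular to the members. Pig 2 held the highest of the 3 values in 56 of the 85, so the group mean leaned on this animal. All 3 arrays were at least 1 above for 26 of the 85, and every array at 6 weeks exceeded every array at 4 weeks for 66 of the 85. Both counts come from arrays that the selection used and were not made for other probe sets. They are therefore not read as a result about the members. At 4 weeks pig 22 held the lowest value in 61 of the 85.

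The number of members depended on these animals too. Without pig 2 at 6 weeks 62 probe sets met the rule, 57 of them among the 90, and without pig 5 184 did, with all 90 among them. Without pig 22 at 4 weeks 76 met it, with 48 of the 90, and without pig 18 or pig 20 161 and 156 did, with 87 and 76 of the 90.

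The members were the upper part of a general difference. Of the 689 probe sets lost at 4 weeks, 654 (94.9%) had a higher mean in IC at 6 weeks, and the 599 that were not members were 0.57 higher in the median, against 1.19 for the 85. The loss at 4 weeks was -1.80 in the median of the 599 and -2.48 in that of the 85. At 6 weeks the 85 had regained 49.0% of their loss in the median, from 31.4% for C15H2orf88 to 98.1% for an unnamed probe set, and the 599 had regained 30.5%. The second threshold divided the 85 from the 599, so the larger rise and, in large part, the larger regained share follow from the selection. None of the 85 reached the mean of CM.

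The threshold cut through a dense region, since 21 members lay within 0.1 above the second limit and 47 of the lost probe sets within 0.1 below it. Just inside were the Wnt receptor FZD5 (1.01), PDHX (1.01) and the dehydrogenase DHRS4 (1.01), and just outside the alanine aminotransferase GPT (0.998) and MCRIP2 (0.995). At the first limit, an unnamed probe set (-1.58), FZD5 (-1.72) and the tetraspanin TSPAN12 (-1.77) were just inside, and 3 unnamed ones (-1.47, -1.47 and -1.45) just outside.

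Regulators of energy supply were among the members with the largest differences. PPARGC1A was met by both of its probe sets. In the brighter one its log2 value was 8.58, 7.65 and 7.39 in CM pigs 30, 31 and 33, then 5.33, 5.19 and 4.23 in IC of pigs 18, 20 and 22, and 7.63, 6.16 and 5.57 in IC of pigs 2, 3 and 5. All 3 arrays at 6 weeks exceeded all 3 at 4 weeks, with pig 2 within the range of CM and pig 5 only just above the highest array at 4 weeks. Such a separation was found for 66 of the 85, in arrays that the selection used, and was not counted for other probe sets. PPARGC1A was the 1 member among 12 measured coactivators and nuclear receptors of metabolism, of which 8 had been lost at 4 weeks, RXRG (-2.88 against CM, 0.69 higher at 6 weeks) and THRB (-2.30 and 0.85) among them.

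PRKAA2, a catalytic subunit of AMP-activated protein kinase, was at 9.09, 9.14 and 8.79 in CM, at 6.97, 6.30 and 6.11 in IC at 4 weeks and at 7.97, 7.96 and 7.82 in IC at 6 weeks. Its 3 arrays at 6 weeks lay close together, and all were at least 1 above the mean at 4 weeks. The phosphatase genes PPM1E and PPTC7 were members as well, the former by the authors' match, with 1.59 and 1.14 between 4 and 6 weeks. A second, dimmer probe set of PPTC7, named by the authors' match, was also lost (-1.65), but its difference from 4 to 6 weeks was -0.41.

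Few genes of glycogen breakdown and glycolysis were lost at 4 weeks. Of 18 measured genes of glucose uptake and glycolysis 4 had been lost at 4 weeks by any of their probe sets, and all 4 were members. Of all lost probe sets, counted as probe sets and not as genes, 13.1% were members. A count of 4 is small, and the list was chosen with earlier results of these data known. Over the 18 genes the median difference from 4 to 6 weeks was 0.28, and 14 had a higher mean at 6 weeks. PFKM, the muscle phosphofructokinase, was at 9.80, 9.98 and 10.14 in CM, at 7.57, 7.35 and 6.80 in IC at 4 weeks and at 9.11, 8.81 and 8.85 in IC at 6 weeks. PYGM, the muscle glycogen phosphorylase, was at 8.61, 9.11 and 9.07 in CM, at 6.89, 6.75 and 5.69 in IC at 4 weeks and at 7.61, 7.68 and 7.45 in IC at 6 weeks. Neither had any overlap between 4 and 6 weeks, in arrays that the selection used. A dimmer probe set of PYGM was not lost (-1.27), and its difference from 4 to 6 weeks was -0.15. The phosphoglycerate mutase PGAM2 was 1.36 higher and the phosphorylase PYGB 1.08 higher at 6 weeks. The other genes of the list did not meet the first threshold. ENO3, the muscle enolase, came nearest to it, at -1.46 against CM and 0.46 higher at 6 weeks, followed by phosphoglycerate kinase, encoded by PGK1 (-1.38 and 0.20). ENO1, another enolase, was 1.56 above CM at 4 weeks, and its difference from 4 to 6 weeks was -0.72.

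Mitochondrial genes were lost widely, and a few of the lost ones met the second threshold, which 13.1% of all lost probe sets met. The lists count genes, by any of their probe sets, so the 2 kinds of share are not strictly alike. Of 25 measured genes of the respiratory chain and ATP synthase 13 were lost and 2 were members, CKMT2 and CYCS, although all 25 had a higher mean in IC at 6 weeks than at 4 weeks, by 0.68 in the median. CKMT2, the creatine kinase of muscle mitochondria, was at 10.81, 11.09 and 11.11 in CM, at 9.37, 9.23 and 7.99 in IC at 4 weeks and at 10.50, 10.08 and 10.34 in IC at 6 weeks. Cytochrome c, encoded by CYCS, was at 9.39, 9.80 and 10.07 in CM, at 8.31, 7.83 and 6.14 in IC at 4 weeks and at 8.92, 8.43 and 8.62 in IC at 6 weeks. In both genes pig 22 was far below pigs 18 and 20 at 4 weeks.

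Of 23 measured genes of the citric acid cycle and pyruvate dehydrogenase 15 were lost, and MDH2, the mitochondrial malate dehydrogenase (1.02 higher at 6 weeks), and PDHX, a binding protein of the pyruvate dehydrogenase complex (1.01), were members. All 23 were higher at 6 weeks, by 0.67 in the median, and PDHA1 (0.98), the catalytic subunit of the same complex, lay just below the limit. GOT1, of the malate-aspartate shuttle, and BDH1, an enzyme of ketone bodies, were the members among 11 measured genes of creatine, nitrogen and oxygen stores. BDH1 was a member by the authors' match only. The probe sets that the platform names BDH1 were lost too, but were 0.64 and 0.32 higher at 6 weeks. COX8H, the heart form of a cytochrome c oxidase subunit by the platform's name, COQ9, of ubiquinone synthesis, the transhydrogenase NNT and PPIF, the cyclophilin of mitochondria, were members outside the lists, by 1.11, 1.09, 1.02 and 1.34. A second, dimmer probe set of COQ9 was also lost and 0.61 higher.

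No gene of fatty acid uptake and breakdown was a member, where 13.1% of all lost probe sets were members. That share counts probe sets, while the lists count genes by any of their probe sets. Of 28 measured, 14 were lost at 4 weeks, and 25 of the 28 had a higher mean in IC at 6 weeks, by 0.56 in the median. LPL, lipoprotein lipase, was 0.94 higher and FABP3, the fatty acid binding protein of the heart, 0.87 higher. PDK4, the kinase that turns off pyruvate dehydrogenase, was lost by -2.42 and 0.04 higher. Cardiac transcription factors gave no member either, with 6 of 12 lost, and no member came from the lists of immediate early genes, heat shock proteins, ubiquitin ligases or the natriuretic and stress response. With so few lost genes in each list, these counts of 0 do not set the lists apart from the share of 13.1%.

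Sarcomere genes were members in 3 of 20 cases, of 6 lost. TTN, the giant spring protein titin, was represented by 3 probe sets, of which 2 were members. In 1 of these it was at 9.65, 9.70 and 9.07 in CM, at 8.36, 7.47 and 6.48 in IC at 4 weeks and at 9.56, 9.07 and 8.43 in IC at 6 weeks, so that pig 2 lay within CM and pig 5 barely above pig 18. The third, the brightest, was 1.21 lower at 4 weeks and missed the first threshold. MYOM2, a protein of the M-band, was at 11.32, 11.23 and 10.99 in CM, at 9.22, 8.31 and 9.27 in IC at 4 weeks and at 10.26, 10.60 and 9.35 in IC at 6 weeks. LDB3, of the Z-disc, was 1.12 higher at 6 weeks by 1 probe set and 0.81 by the other. All 20 sarcomere genes had a higher mean in IC at 6 weeks than at 4 weeks, by 0.50 in the median.

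NEB and TPM2 entered by less secure values. NEB, the thin filament protein nebulin, was at 6.33, 4.35 and 2.90 in IC at 4 weeks and at 6.17, 5.31 and 6.53 at 6 weeks, so the groups overlapped. TPM2, beta-tropomyosin, had 4 probe sets tested, and the 3 others were not lost at 4 weeks, with differences from CM of -0.33 to 0.99. ASB11, a substrate receptor of ubiquitin ligases, had the largest loss of a named member (-4.03) and was at 9.40, 9.65 and 9.32 in CM, at 5.61, 4.66 and 6.02 in IC at 4 weeks and at 7.18, 7.45 and 6.61 in IC at 6 weeks. ANKRD23, an ankyrin repeat protein that binds titin, was 1.40 higher at 6 weeks.

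Ion channel genes that shape the action potential were also among the members. Of 18 measured genes of calcium cycling and ion channels 12 were lost, and KCNIP2, KCNJ5 and KCNH2 were members. KCNIP2, a subunit of the channel of the transient outward current, was at 8.51, 8.98 and 8.97 in CM, at 6.98, 7.40 and 6.18 in IC at 4 weeks and at 8.56, 8.16 and 7.39 in IC at 6 weeks. Pig 5 at 6 weeks therefore did not exceed pig 20 at 4 weeks. KCNH2, the channel of the rapid delayed rectifier current, was a member by the authors' match, at 5.18, 5.32 and 4.46 in IC at 4 weeks and at 6.62, 6.13 and 5.30 at 6 weeks, again with pig 5 inside the range of 4 weeks. The probe set that the platform names KCNH2 had a mean of 3.21 in CM, near background, and was not lost (-0.49, and 0.16 higher at 6 weeks). KCNJ5, a channel opened by vagal signals, overlapped between the stages, with 4.81, 3.80 and 6.24 at 4 weeks and 5.99, 6.49 and 5.71 at 6 weeks. The adenylyl cyclase ADCY6, of the adrenergic list, was 1.15 higher, and the magnesium transporter SLC41A1 1.32 higher by 1 of 4 probe sets, the others differing by -0.08, 0.50 and 0.89. Of 11 measured genes of adrenergic signalling 4 were lost, and of 10 solute carriers of muscle 5.

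Members known mainly from other tissues stood beside these. The peptide hormone CCK was at 10.86, 11.27 and 11.60 in CM, at 7.50, 7.31 and 8.95 in IC at 4 weeks and at 9.44, 8.94 and 9.62 in IC at 6 weeks. The stomach proton pump subunit ATP4B was 1.49 higher at 6 weeks. By the authors' match, the cation pump gene ATP13A4 (1.73) and the carboxypeptidase CPN1 (1.41) also belonged here. LOC100522375 was met by 2 probe sets (1.66 and 1.45), and ADHFE1 and C15H2orf88 were 1.10 and 1.11 higher after losses of -3.30 and -3.52.

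The 20 members with a lower IC mean at 1 week than at 4 weeks included PPARGC1A, MYOM2, SLC41A1, KCNIP2, ADHFE1 and, by the authors' match, MAP3K14, FNBP1 and TTC29. MAP3K14, a kinase of NF-kappaB signalling, was at 8.30, 8.24 and 8.48 in CM, at 4.52, 5.59 and 5.38 in IC at 1 week, at 7.32, 6.77 and 5.29 at 4 weeks and at 9.04, 7.54 and 7.37 at 6 weeks. In RM it was at 6.61, 7.22 and 7.21 at 1 week, at 7.37, 6.91 and 6.99 at 4 weeks and at 8.78, 7.70 and 7.37 at 6 weeks. Its order was thus 1 week below 4 weeks below 6 weeks in IC by the means, and pig 2 was the highest in both tissues. FNBP1 and TTC29 had the same order, with IC means, from the earliest to the latest stage, of 2.42, 3.63 and 5.16 and of 6.18, 7.37 and 8.68. FNBP1 had a second probe set that was 1.27 above CM at 4 weeks.

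**Figure D4:**
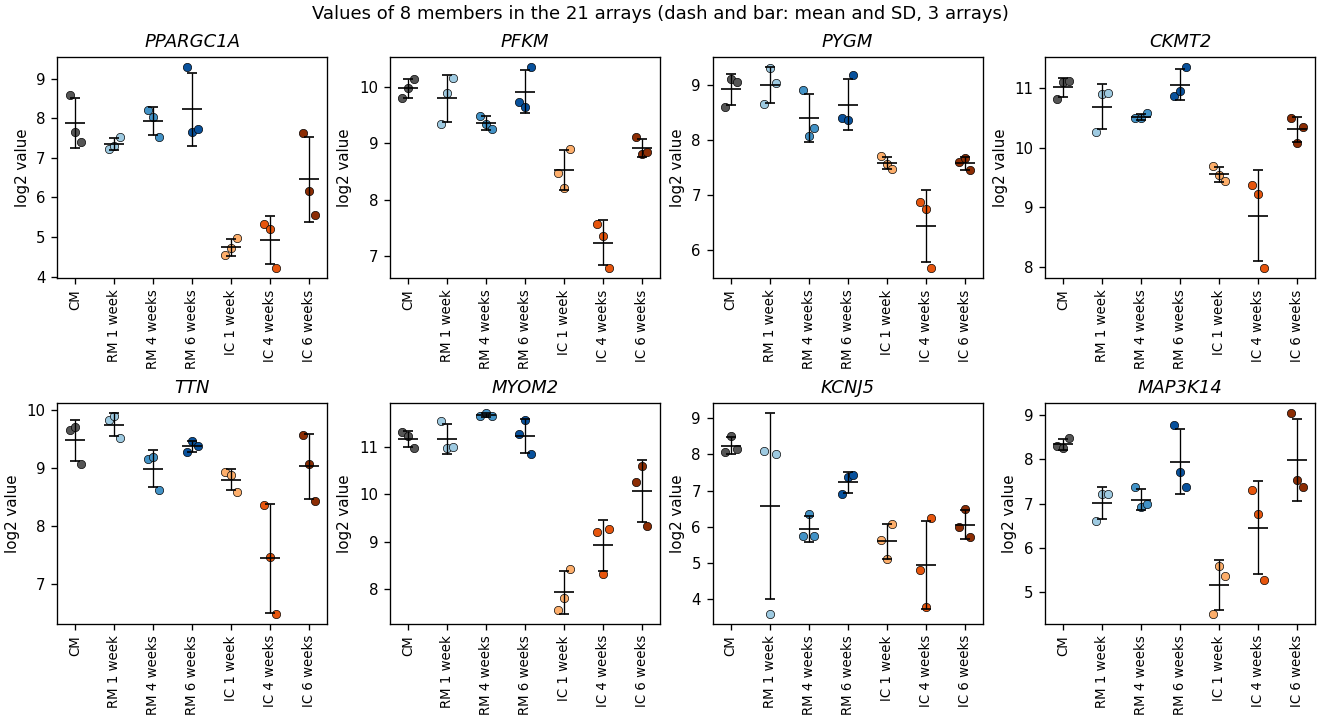
The log2 values (y axis) of 8 members, in the brighter of the probe sets that met the rule, are plotted by group (x axis), with points for the 3 arrays and a dash and bar for their mean and SD. PPARGC1A, PFKM, PYGM and CKMT2 have no overlap between IC at 4 and 6 weeks, while KCNJ5 overlaps, and MAP3K14 has its lowest IC mean at 1 week. The selection used the arrays of IC at 4 and 6 weeks.

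The comparison of IC with RM at 1 week used no array of the selection and asked whether the members were already lower in the early infarct than in distant muscle of the same heart. In limma with the pig as a block, 81 of the 90 members fell, at an adjusted p under 0.05 (Benjamini-Hochberg), where 27.9% of all probe sets tested were called lower. Among the 599 lost probe sets that were not members 574 (95.8%) were called lower, against 81 of the 85 members (95.3%). The median difference was -1.91 for the 85, -1.41 for the 599 and -0.08 for all probe sets tested. In 83 of the 90 IC was below RM in all 3 pigs, where this held for 39.3% of all probe sets tested. The 3′ minus 5′ difference of the GAPDH control was 1.16 to 1.39 in IC and 0.09 to 0.51 in RM at 1 week. That of actin was 3.86 to 4.08 in IC and 3.62 to 4.21 in RM. The part of RNA quality in this comparison was not tested.

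The largest fall at 1 week was that of an unnamed probe set (-3.54), followed by MYOM2 (log2 FC -3.24, standard error 0.27, adjusted p = 1.17e-05), ASB11 (-3.17), SLC41A1 (-3.13), ADHFE1 (-3.09) and CCDC93 (-3.04), the last by the authors' match, while its other 2 probe sets were not lost at 4 weeks. MYOM2 was at 7.56, 7.81 and 8.44 in IC and at 11.55, 10.99 and 11.01 in RM of pigs 7, 8 and 9, without overlap. Lower too were PPARGC1A (-2.70 and -2.61 by its 2 probe sets), RNF207 (-2.68), COX8H (-2.67) and LOC100522375 (-2.59). PPARGC1A was at 4.54, 4.73 and 4.96 in IC and at 7.23, 7.29 and 7.53 in RM by the brighter probe set.

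Among the enzymes of glycogen breakdown and glycolysis, PFKM (log2 FC -1.27, standard error 0.20, adjusted p = 0.000496), PYGM (-1.42), PGAM2 (-1.84) and PYGB (-2.37) all fell, and of the 18 genes of the list 9 fell and 2 rose. CKMT2 (-1.13, adjusted p = 0.00622) and CYCS (-1.02, adjusted p = 0.0132) fell, and 24 of 25 genes of the respiratory chain list fell. PRKAA2 (-1.84), KCNH2 (-2.23) and KCNIP2 (-2.25) fell as well. Of the ion channel and calcium list 14 of 18 fell, and of the sarcomere list 12 of 20, with none higher in either. Values for PFKM were 8.47, 8.21 and 8.90 in IC at 1 week, above all 3 of IC at 4 weeks.

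Of the 85, 4 did not pass. NEB differed by -1.17 (standard error 0.67, adjusted p = 0.165), TPM2 by -0.75 (adjusted p = 0.144), KCNJ5 by -0.97 (adjusted p = 0.26) and an unnamed probe set by -0.49 (adjusted p = 0.293). KCNJ5 was at 8.09, 3.61 and 8.03 in RM of pigs 7, 8 and 9 and at 5.63, 5.11 and 6.07 in IC, so that 1 RM array reversed the order. Of the 5 members that followed EIF1AY none fell, and the probe set named CLOCK or XIST was 0.87 higher in IC (adjusted p = 0.0111). Leaving out 1 pig at a time gave 76 to 82 members lower.

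**Figure D5:**
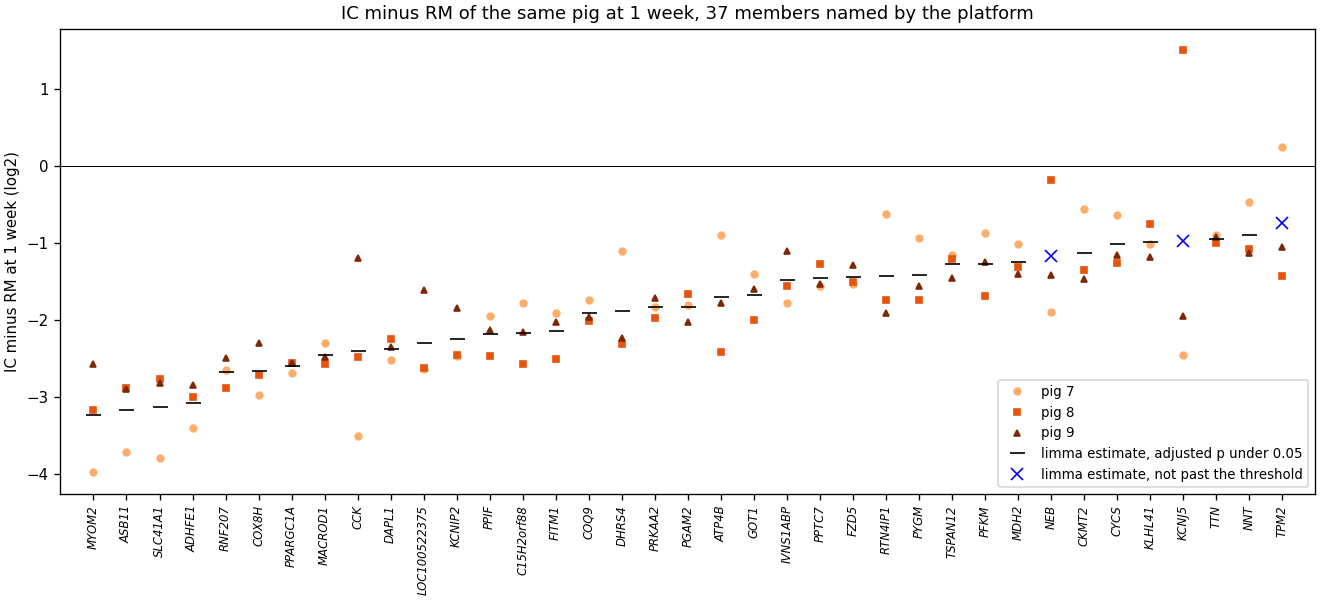
For each of 37 members named by the platform's annotation (x axis, 1 probe set per gene) points give IC minus RM at 1 week (y axis, log2) in pigs 7, 8 and 9, with the limma estimate as a dash where it passed and as a cross where it did not. All points but 2 lie below 0, and the 3 crosses are NEB, KCNJ5 and TPM2.

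Set against CM, whose arrays the selection had used, 80 of the 90 members were called lower in IC at 1 week, where 28.2% of all probe sets tested were. Of the 85 the exceptions were CYCS (-0.89, adjusted p = 0.0608), a TTN probe set (-0.67, adjusted p = 0.108) and 3 unnamed ones. CYCS was at 9.05, 8.71 and 8.84 in IC at 1 week, TTN at 8.93, 8.88 and 8.58.

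Within the infarcted pigs IC was also set against RM at the later stages, as a description. The median IC minus RM difference of the 85 was -2.02, -1.95 and -2.54 at 4 weeks (pigs 18, 20 and 22) and -0.81, -1.18 and -1.69 at 6 weeks (pigs 2, 3 and 5). Pig 5 at 6 weeks thus lay closer to pig 20 at 4 weeks than to pig 2 of its own stage. For the 599 it was -1.52, -1.45 and -1.91 at 4 weeks and -0.87, -1.05 and -1.49 at 6 weeks.

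Remote myocardium was compared between 6 and 4 weeks, with arrays that the selection did not use but of the same pigs. In limma 5 of the 90 members passed, where 0.632% of all probe sets tested were called in either direction, and they were the 5 that followed EIF1AY. The probe set named CLOCK or XIST was 4.14 higher (standard error 0.57, adjusted p = 0.00111) and LPHN2 3.88 higher (standard error 0.69, adjusted p = 0.0098). These means at 4 weeks lie below 3, where values are near the background of the array, so the sizes are not exact. Without RM of pig 20 at 4 weeks 2 of the 5 passed, and without RM of pig 3 at 6 weeks 3 did. Of all probe sets tested, these 2 fits called 26 and 38, against 77 with all arrays.

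Of the other 85 members none passed between RM at 4 and 6 weeks in limma, and 8 had an unadjusted p under 0.05, all higher at 6 weeks, where 3.31% of all probe sets tested were higher at that level. Among them were PFKM (0.55, adjusted p = 0.395), a TTN probe set (0.50), PRKAA2 (0.41), CPN1 (0.74), NMNAT2 (0.93), a synthase of NAD, and SYCE2 (0.79, adjusted p = 0.122). PFKM was at 9.49, 9.34 and 9.25 in RM at 4 weeks and at 9.73, 9.65 and 10.35 at 6 weeks, without overlap. By sign alone 69 of the 85 were higher in RM at 6 weeks, with a median of 0.26, where 44.5% of all probe sets tested were higher and 373 of the 599 were, with a median of 0.07. The actin 3′ minus 5′ difference was 2.82 to 3.22 in RM at 4 weeks and 3.97 to 4.80 at 6 weeks, and the median difference of the cardiomyocyte markers from CM was -0.01 to 0.07 in these 6 arrays. The part of RNA quality and of the EIF1AY signal in these values was not tested.

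How many members passed in RM against CM depended on the weighting of arrays, since with array weights in limma 7 of 90 passed at 1 week and 23 at 4 weeks. The share of all probe sets called with array weights was not counted, so these counts are not read as a result about the members. Without weights, at 1 week GPR137C, a receptor-like gene by the authors' match, fell by 0.90 (standard error 0.20, adjusted p = 0.0377), as 1 of 90, where 1.13% of all probe sets tested were called. At 4 weeks 3 of 90 passed without weights, where 1.08% were called. These were the probe set named CLOCK or XIST (-2.88), LPHN2 (-3.12), both of which divide by EIF1AY, and SYCE2 (-0.97, adjusted p = 0.0333), named for a protein of meiotic chromosomes. SYCE2 was at 5.15, 5.46 and 5.86 in CM and at 4.71, 4.34 and 4.51 in RM at 4 weeks. The single calls rested on individual arrays. Without CM pig 30, 31 or 33, or RM of pig 7 or 9, GPR137C and all other members missed the threshold at 1 week, and at 4 weeks 6 members passed without CM pig 30, 2 without RM of pig 18, and none without CM pig 31 or 33 or RM of pig 20 or 22.

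At 6 weeks none of the 90 passed in RM against CM in limma, where 0.197% of all probe sets tested were called, and 7 had an unadjusted p under 0.05, where 12.5% of all had. From the earliest to the latest stage, the median difference of the 85 from CM was -0.16, -0.36 and -0.03, and for the 599 it was -0.15, -0.20 and -0.15. These comparisons share the 3 CM arrays. KCNJ5 had the most negative difference of the 85 in RM at 4 weeks, at 5.75, 6.37 and 5.74 against 8.06, 8.52 and 8.16 in CM, without overlap, though its difference of -2.29 (standard error 0.81, adjusted p = 0.163) did not pass. In RM at 6 weeks it was at 6.90, 7.37 and 7.44.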

How the data were processed

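The authors made the deposited log2 values by RMA (background correction, quantile normalization over arrays and summary of probes into 24123 probe sets), 1 column for each of 21 arrays, and nothing was rescaled. The tests kept the 12180 probe sets whose value exceeded 3 in 10 or more arrays. The software was limma 3.58.1 in R 4.3.3. A fit of 7 group means (14 residual degrees of freedom) gave the comparisons within RM and with CM. IC was set against RM in 18 arrays with the pig as a block (6 residual degrees of freedom), since the labels give both arrays of a pig 1 number. P values were adjusted by Benjamini-Hochberg within a comparison over all probe sets tested, and standard errors are limma's. The fits were tested on simulated data. Array number limits the precision.

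Members and gene lists were chosen with earlier results of these data known. Named are the members with the 20 largest differences between 6 and 4 weeks, the 10 largest losses, list members, called members and those beside a threshold. COQ9, NNT, PPIF, PPTC7, TTC29, NMNAT2, C15H2orf88, EIF1AY, SRY and XIST, and genes of the lists that are no members, were named after their values were seen. Lists count 1 probe set per gene, the brightest, for calls, and any probe set for losses and members. Platform symbols came first, and otherwise the authors' match, held for 2428 probe sets tested. Marker lists used platform symbols only. Fold changes and p-values in the authors' tables were not used. Sequences were not used here. A few genes meeting this rule are left unreported. Alternatives were other filters, scalings, fits, thresholds and arrays left out.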

Additional observations from a re-analysis of the deposited data

How the results depend on the processing

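For IC against RM at 1 week, 81 members were lower with the pig as a block in the paired fit, 80 with the pig as a random replicate block and 80 with no replicate block. Between IC and RM of 1 pig, deviations from the group means had r = 0.0714 for pig 7, the lowest, and 0.491 for pig 3, the highest of 9. Leaving out 1 pig gave 76 to 82 for this count and 79 to 80 for IC at 1 week against CM, and no alternative moved either count by more than 1.5 times. For RM at 6 against 4 weeks, leaving out an array gave 2 to 5, and leaving out the 5 members that followed EIF1AY, a setting chosen after seeing the data, gave 0. For RM at 1 week against CM the count of 1 became 0 without the filter on low values, 0 at an adjusted p under 0.01, 0 with an absolute log2 difference of at least 1 and 7 with array weights, and 0 to 1 when an array was left out. For RM at 4 weeks against CM the count of 3 became 0 at an adjusted p under 0.01, 23 with array weights, 1 without the 5 members and 0 to 6 when an array was left out. For RM at 6 weeks against CM it was 0 under each of the 18 alternatives. The cause of these changes was not tested, and the share of all probe sets called with array weights was not counted. The number of members ran from 62 to 184 when an array was left out, and 92 probe sets, 59 of them members, met the rule by group medians.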
